A study of Homo sapiens with 10 samples.

Results

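The genes described here are 10 cyclins that act in the cell division cycle, taken by symbol from the 55841 gene rows of the count table of the series. They are the D-type cyclins CCND1, CCND2 and CCND3, the E-type cyclins CCNE1 and CCNE2, the A-type cyclins CCNA1 and CCNA2, the B-type cyclins CCNB1 and CCNB2, and CCNF. All 10 passed the filter on low counts that kept 23552 genes for testing. The series holds 10 bulk RNA sequencing libraries. All were made from 1 line of human embryonic stem cells, HES9 in the labels and WA09 in the study's text, grown without feeder cells on matrigel in mTESR1 medium. The general libraries came from the whole unsorted culture (2 in batch 1 and 3 in batch 2). The HHH libraries came from cells sorted by flow cytometry for high surface GCTM-2, CD9 and EPCAM (2 in batch 1 and 3 in batch 2). General cells thus include HHH cells, and no library's label gives a genetic change. The deposit mentions a protein kinase C inhibitor, which no library's label carries, so whether any culture received it is not resolved here. Nothing says that libraries of a group came from separate cultures, so p-values measure only the spread between these libraries.

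Cyclins are the regulatory partners of cyclin-dependent kinases (CDKs), and most are made and destroyed once per division. D-type cyclins pair with CDK4 and CDK6 in G1 and start the phosphorylation of the retinoblastoma protein, and E-type cyclins pair with CDK2 at the entry into S phase. Cyclin A2 works with CDK2 and CDK1 through S phase and G2, whereas cyclin A1 is best known from male germ cells. Cyclins B1 and B2 pair with CDK1 and drive mitosis. Cyclin F binds no CDK and is the substrate-binding subunit of a ubiquitin ligase that acts in S phase and G2. Pluripotent stem cells are known for a short G1 phase. The comparison asks whether RNAs of the G1, S and mitotic cyclins differ between HHH cells and the whole culture, populations whose cell cycle phases the study measured by other means.

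Depth ran from 47242595 to 78503395 counts per library, which put 3 counts at 0.0460 to 0.0687 CPM, the unit that divides counts by the TMM-scaled size of the library. Small RNAs and mitochondrially encoded genes took 3.04% to 5.20% of the counts in batch 1 and 0.825% to 1.04% in batch 2. The pluripotency genes POU5F1 (516 ± 30.9 CPM in general, 569.8 ± 72.6 in HHH, SD, n = 5 each) and NANOG (32.5 ± 3.62 and 44.2 ± 3.75) were well expressed in both populations. Of 6 pluripotency genes, NANOG was higher in HHH (log2 difference 0.44, adjusted p = 0.00572) and SOX2 lower (-0.26, adjusted p = 0.0375), and POU5F1 (0.13), LIN28A (-0.21), DPPA4 (0.18) and TDGF1 (0.33) did not pass. EPCAM was higher in HHH with a log2 difference of 0.41 (SE 0.081, adjusted p = 0.00645, edgeR). It passed in batch 2 and not in batch 1 (0.35, adjusted p = 0.164). CD9 had a log2 difference of 0.29 (adjusted p = 0.195). Blocking on replicate number, to which general replicate 1 and HHH replicate 3 of batch 1 add nothing, gave 0.46 (adjusted p = 0.0186). Leaving out that HHH library alone gave 0.40. CD9 was higher in HHH in batch 2 (log2 difference 0.55, adjusted p = 0.00851) but not in batch 1 (-0.098). The summed level of 6 neural markers was 1.61 to 2.60 CPM in general and 1.03 to 1.29 CPM in HHH. That of 4 trophoblast or amnion markers, most of it KRT7, was 5.65 to 10.5 CPM in general and 3.46 to 5.50 CPM in HHH. For 4 fibroblast markers, mainly COL1A1 and PDGFRB, the sum was 32.9 to 35.1 CPM in general and 32.4 to 33.6 in HHH in batch 1, against 34.7 to 39.5 and 17.0 to 23.0 in batch 2. The 4 mesoderm and primitive streak markers stayed below 1 CPM each. The 4 endoderm markers, mainly FOXA2, went the other way in batch 1, with 0.153 to 0.922 CPM in general and 1.40 to 1.72 CPM in HHH, and summed to at most 0.258 CPM in batch 2. No marker was at 0 in all libraries.

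Levels were first set side by side across cyclins, as CPM per kilobase of exon. CCNB1 stood highest at 123 ± 22.1 (SD, n = 10), followed by CCNA2 at 88.1 ± 16.5, and CCNB1 was above CCNA2 in 10 of 10 libraries although their ranges overlapped. CCND2 (45.2 ± 8.98) and CCNB2 (38.7 ± 3.74) came next with overlapping ranges. CCND1 (28.3 ± 4.33), CCNF (14.7 ± 1.74) and CCNE1 (11.3 ± 1.51) formed the middle of the order. The ranges of CCND1 and CCNF did not overlap, while those of CCNF and CCNE1 did. CCNE2 (2.59 ± 0.309) and CCND3 (2.45 ± 0.635) lay lower, CCNE2 being 4.37-fold below CCNE1, and had overlapping ranges. CCNA1 was lowest at 0.523 ± 0.210, below every other cyclin in every library. The RNAs of the mitotic cyclin B1 and of cyclin A2 were thus the most abundant of the 10. With the exon lengths implied by the deposited normalized values, CCNB2 was at 58.3 and stood above CCND2 (50.5), and CCND3 (2.66) stood above CCNE2 (2.59).

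**Figure D1:**
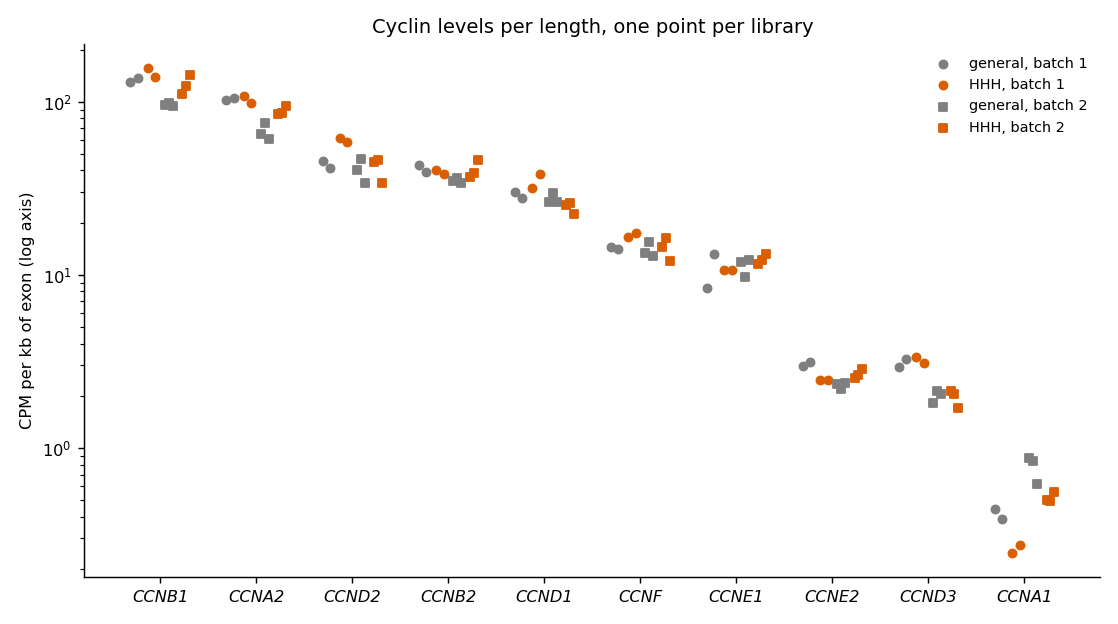
Level per length of each cyclin (CPM per kilobase of exon, log axis), 1 point per library, grey for general, orange for HHH, circles for batch 1 and squares for batch 2. CCNB1 averages 123 and CCNA1 0.523, and neighbours in the order mostly overlap, except CCND1 over CCNF, CCNE1 over CCNE2 and CCND3 over CCNA1.

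Of the summed level of the 10 cyclins, the B-type pair took 42.6% to 51.1% and the A-type pair 22.1% to 27.3%. The D-type cyclins took 15.6% to 24.8%, the E-type 2.98% to 5.20% and CCNF 3.24% to 4.89%. In batch 1 the D-type share averaged 19.7% in general and 23.4% in HHH. The averages in batch 2 were 23.5% in general and 19.4% in HHH, the opposite direction. The A-type share went the other way, from 27.2% in general to 24.7% in HHH in batch 1 and from 22.9% to 25.3% in batch 2. As parts of the same total, the shares do not move independently of each other. The log2 ratio of the summed S, G2 and mitotic cyclins (CCNA2, CCNB1, CCNB2 and CCNF) over the D-type cyclins was 1.89 and 2.02 in general and 1.73 and 1.56 in HHH of batch 1. The batch 2 values were 1.61, 1.52 and 1.69 in general and 1.78, 1.83 and 2.35 in HHH. Each batch thus separated the populations on this ratio, in opposite directions. Of single genes, 43.5% separated them in batch 1 and 36.2% in batch 2, in either direction, and the ratio was not tested.

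**Figure D2:**
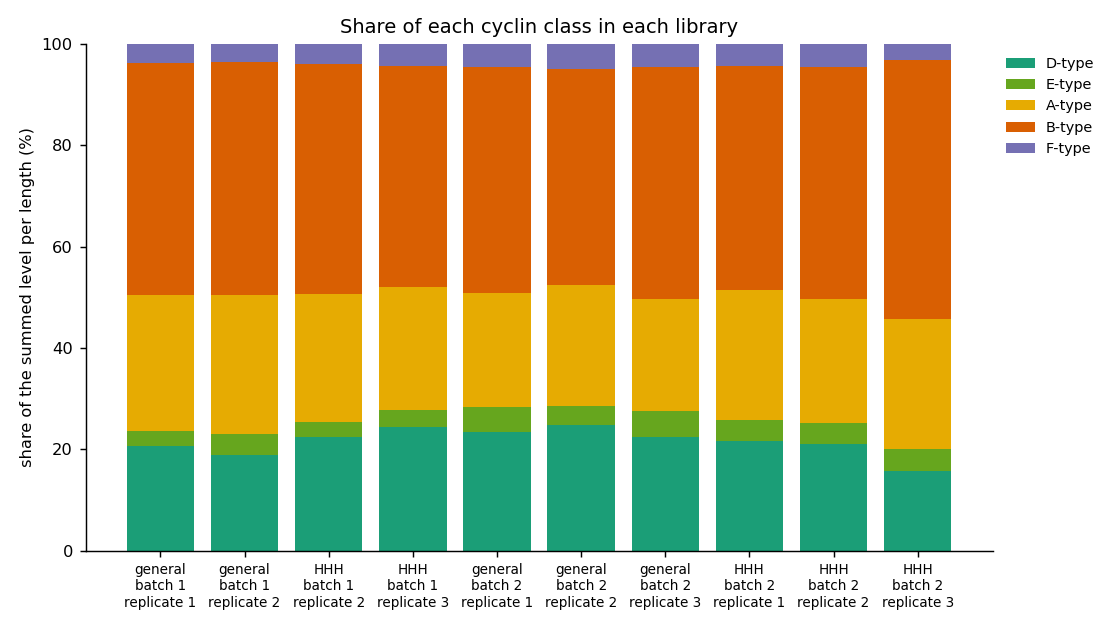
Share (%) of each cyclin class in the summed level per length of the 10 cyclins, 1 bar per library, ordered by batch and population. The B-type share ranges from 42.6% to 51.1%, and the D-type share is lowest (15.6%) in HHH replicate 3 of batch 2.

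Across both batches, with batch as a term, 1 of the 10 cyclins differed between HHH and general, against 5.83% of all tested genes. This was CCNA1, which was lower in HHH. Of the others, 9 had a log2 difference above 0 and none of these passed the test, and 3 of 10 had an unadjusted p under 0.05 (CCNA1, CCNA2 and CCNB1). Of all tested genes, 53.0% had a log2 difference above 0 and 20.9% an unadjusted p under 0.05. The median log2 difference of the cyclins was 0.087, beside 0.016 for all tested genes. With the replicate number as a block, 0 of the 10 cyclins passed, beside 6.95% of all tested genes. General replicate 1 and HHH replicate 3 of batch 1 have no partner of the same number. They add nothing to the effect under the block, so a change under it is not due to pairing alone. In bulk RNA, fewer cells in a phase and less RNA per cell cannot be told apart.

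**Figure D3:**
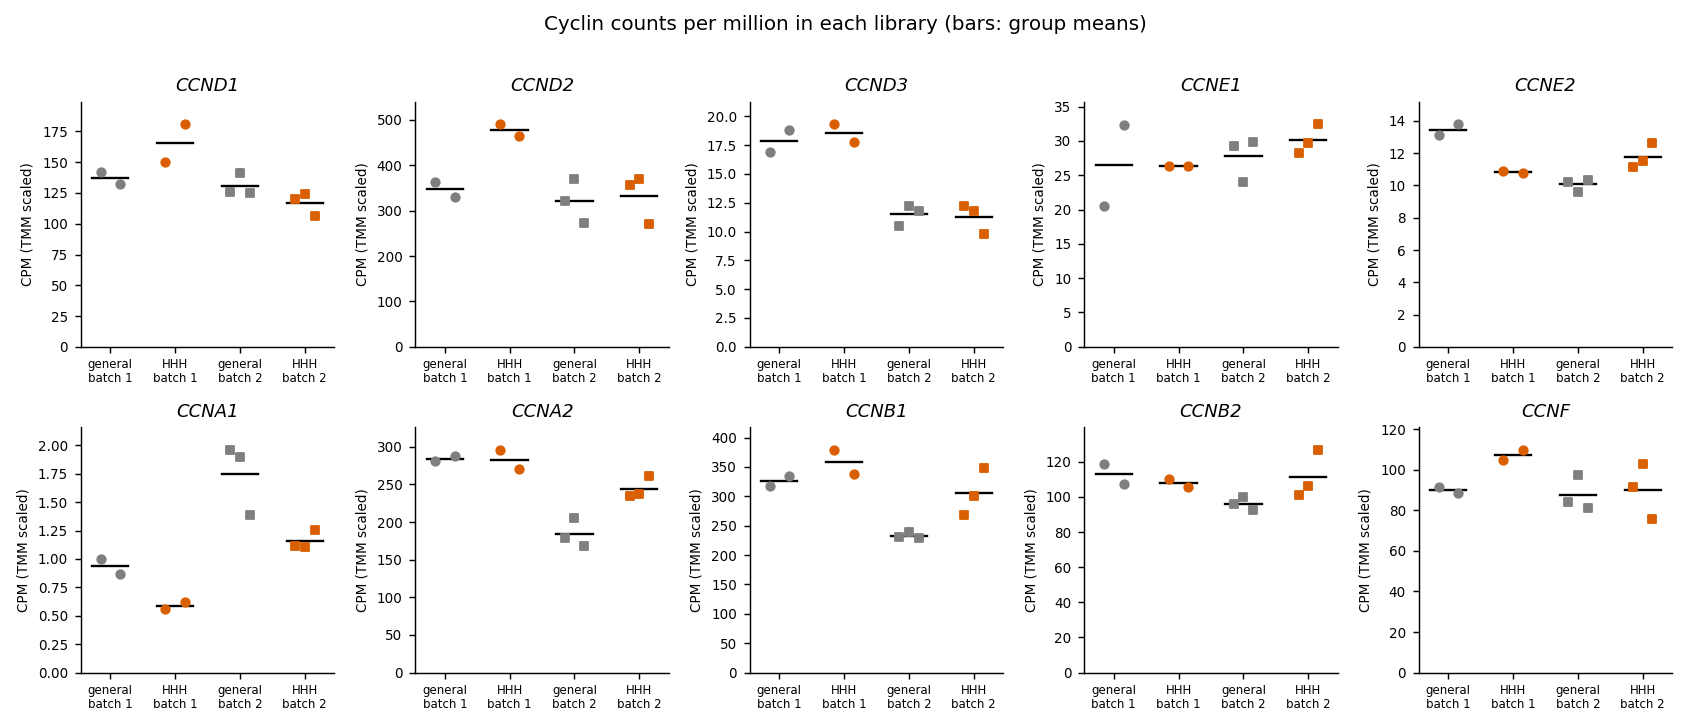
CPM of each of the 10 cyclins in every library, grey for general, orange for HHH, circles for batch 1 and squares for batch 2, with a bar at each group mean and every axis starting at 0. CCNA1 is lower and CCNB1 higher in every HHH library than in every general library of its batch, and CCNA2 separates only in batch 2.

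The only cyclin that passed was the scarcest. CCNA1, on chromosome 13 (36431520 to 36442870, plus strand, GRCh38), measured 0.996 and 0.872 CPM in general and 0.557 and 0.618 CPM in HHH of batch 1. In batch 2 the level was 1.96, 1.90 and 1.38 CPM in general and 1.12, 1.11 and 1.26 CPM in HHH. Every HHH library lay below every general library of its batch. The log2 fold change was -0.62 (SE 0.15, adjusted p = 0.0275, edgeR quasi-likelihood test), from 26 to 113 counts per library. It was -0.67 in batch 1 (adjusted p = 0.217) and -0.59 in batch 2 (adjusted p = 0.0613), and the interaction of batch and population was 0.079 (SE 0.32). With the replicate number as a block, under which 6.95% of all genes passed, CCNA1 was at -0.59 with an adjusted p of 0.0707. Its adjusted p rose above 0.05 without general replicate 1 (0.0572) or HHH replicate 2 (0.0596) of batch 1. It also did without HHH replicate 1 (0.0789) or 2 (0.0853) or general replicate 1 (0.0929) or 2 (0.0768) of batch 2. The sums of the neural and trophoblast markers given above were also lower in HHH in each batch. That of the fibroblast markers was lower without overlap only in batch 2, and that of the endoderm markers was higher in HHH in batch 1. Of the neural markers, SOX1 passed (-1.39, adjusted p = 0.0391) and PAX6 did not (-0.15, adjusted p = 0.665). The part of these markers in the result was not tested.

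In batch 2, CCNB1 and CCNA2 were higher in HHH, as 2 of the 10 cyclins against 9.47% of all tested genes. CCNB1, on chromosome 5 (69167135 to 69178245, plus strand), measured 232, 239 and 228 CPM in general and 269, 301 and 348 CPM in HHH of that batch. All 3 general libraries lay below all HHH libraries. The log2 difference was 0.39 (SE 0.10, adjusted p = 0.0256). The batch 1 libraries measured 318 and 334 CPM in general and 379 and 338 CPM in HHH, again without overlap, with a log2 difference of 0.14 (SE 0.12, adjusted p = 0.609). Over both batches it was 0.29 (SE 0.086, adjusted p = 0.0617), and 0.33 with the replicate block (adjusted p = 0.0588). The adjusted p over both batches was 0.0246 without HHH replicate 3 of batch 1 and 0.162 without general replicate 1 of batch 2.

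CCNA2, on chromosome 4 (121816444 to 121823883, minus strand), measured 179, 205 and 168 CPM in general and 235, 238 and 261 CPM in HHH of batch 2. The log2 difference was 0.41 (SE 0.094, adjusted p = 0.0159). In batch 1 the populations overlapped, at 281 and 288 CPM in general and 296 and 269.9 CPM in HHH, with a log2 difference of -0.0067 (SE 0.11). The difference between the batches in this effect was 0.41 (SE 0.15), and it did not pass the test (adjusted p = 0.171). Over both batches CCNA2 had a log2 difference of 0.24 (SE 0.092, adjusted p = 0.148), and the adjusted p was 0.0490 without HHH replicate 3 of batch 1. Of the exon bases of CCNA2, 9.24% overlap EXOSC9 on the opposite strand, and whether counting used strand is not given in the sources used here. Both calls in batch 2 were lost when single libraries were left out. For CCNA2 these were HHH replicate 3 (0.0573), general replicate 1 (0.0720) and general replicate 3 (0.0933), and for CCNB1 the same ones (0.0951, 0.0870 and 0.104) and HHH replicate 2 (0.0579).

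CCNB2, the second B-type cyclin, on chromosome 15 (59105126 to 59125045, plus strand), measured 95.7, 99.9 and 92.7 CPM in general and 101, 106 and 127 CPM in HHH of batch 2. The groups did not overlap, and the log2 difference was 0.21 (SE 0.094, adjusted p = 0.157). In batch 1 it measured 119 and 107 CPM in general and 110.3 and 105 CPM in HHH, a log2 difference of -0.066 (SE 0.11). CCNF, on chromosome 16 (2429394 to 2458854, plus strand), is the cyclin that binds no CDK. It measured 91.5 and 88.4 CPM in general and 105 and 109.9 CPM in HHH of batch 1, a log2 difference of 0.26 (SE 0.13, adjusted p = 0.345). Its batch 2 libraries measured 83.9, 97.4 and 80.9 CPM in general and 91.5, 103 and 75.8 CPM in HHH, where the groups overlapped and the log2 difference was 0.041 (SE 0.11). Of CCNA2, CCNB1, CCNB2 and CCNF, only CCNB1 was thus without overlap and in the same direction in each batch.

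The stretches before the starts of these cyclins are shown because such promoters are known for CCAAT boxes, read by the NF-Y factor, and for the element TTTGAA bound by the DREAM and MuvB complexes. Each stretch has 120 bases on the gene's strand, 5′ to 3′, from RefSeq on GRCh38.p14, and ends before the first base of the annotated gene. Capitals mark 3 strings found on either strand: CCAAT for the NF-Y box, the element TTTGAA just named, and an E2F-like string spelled TTTNNCGC.
CCNA2 (chr4:121823884-121824003, minus strand): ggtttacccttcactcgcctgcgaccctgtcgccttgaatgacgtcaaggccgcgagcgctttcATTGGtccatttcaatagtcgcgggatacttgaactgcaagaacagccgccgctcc
CCNB1 (chr5:69167015-69167134, plus strand): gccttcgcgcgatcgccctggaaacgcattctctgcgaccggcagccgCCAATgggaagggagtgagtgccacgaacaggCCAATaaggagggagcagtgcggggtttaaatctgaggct
CCNB2 (chr15:59105006-59105125, plus strand): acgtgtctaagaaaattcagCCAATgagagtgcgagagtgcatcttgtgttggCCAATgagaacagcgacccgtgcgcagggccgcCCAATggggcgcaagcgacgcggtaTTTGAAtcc
CCNF (chr16:2429274-2429393, plus strand): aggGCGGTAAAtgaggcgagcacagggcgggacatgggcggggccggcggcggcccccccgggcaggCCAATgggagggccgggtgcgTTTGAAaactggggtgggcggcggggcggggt

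In the full 250 bases before the start, CCNB2 and CCNF each held 4 CCAAT and 1 TTTGAA, CCNB1 held 2 CCAAT, and CCNA2 held 1 on the opposite strand. CCNF also held 1 TTTNNCGC. The 2 CCAAT of CCNB1 ended 83 and 51 bases before the start, and 3 of those of CCNB2 ended 116, 83 and 50 bases before it. Of 34941 promoters of that length, 32.0% held CCAAT, 13.4% TTTGAA and 5.89% TTTNNCGC on either strand, and 1.35% held TTTGAA with 2 or more CCAAT. CCNE1 and CCNA1 held none of the 3 strings, and of the 3 starts listed for CCND3, 2 held 1 CCAAT each. Matches of letters describe the sequence only. Elements spelled with other letters were not searched, so a string not found does not show that a promoter lacks the element. CCND1, CCND2 and CCNE2 have no entry in the promoter table used.

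Among the G1 cyclins, none passed the test over both batches or in either batch. CCND1, on chromosome 11 (69641156 to 69654474, plus strand), measured 142 and 133 CPM in general and 150.1 and 181 CPM in HHH of batch 1. In batch 2 its values were 126, 141 and 125 CPM in general and 120.3, 124 and 106 CPM in HHH. HHH was thus above general in batch 1 and below it in batch 2, each without overlap. The log2 differences were 0.27 (SE 0.12, adjusted p = 0.270) and -0.16 (SE 0.098, adjusted p = 0.308), which gave 0.011 (SE 0.095) over both. The difference between the batches was -0.43 (SE 0.15, adjusted p = 0.172). Of its exon bases, 10.4% overlap LTO1 on the opposite strand.

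CCND2, the most abundant D-type cyclin, on chromosome 12 (4269771 to 4305353, plus strand), measured 363 and 331 CPM in general and 491 and 465 CPM in HHH of batch 1. The log2 difference there was 0.46 (SE 0.16, adjusted p = 0.146), the largest of any cyclin above 0 in that batch. The values in batch 2 were 321, 370.5 and 272 CPM in general and 357, 369 and 272 CPM in HHH, and the populations overlapped, with a log2 difference of 0.050 (SE 0.13). CCND3, on chromosome 6 (41934934 to 42050357, minus strand), measured 16.9 and 18.8 CPM in general and 19.3 and 17.8 CPM in HHH of batch 1. Those of batch 2 were 10.5, 12.2 and 11.7 CPM in general and 12.2, 11.8 and 9.81 CPM in HHH. The populations overlapped in both batches, and the log2 difference over both was 0.0059 (SE 0.086).

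The E-type cyclins act at the border of G1 and S phase. CCNE1, on chromosome 19 (29811991 to 29824312, plus strand), measured 20.6 and 32.3 CPM in general and 26.3 in both HHH libraries of batch 1, so that its general libraries spanned the HHH ones. Batch 2 gave 29.3, 24.0 and 29.9 CPM in general and 28.3, 29.8 and 32.5 CPM in HHH. The log2 difference over both batches was 0.072 (SE 0.11, adjusted p = 0.755). CCNE2, on chromosome 8, measured 13.1 and 13.8 CPM in general and 10.9 and 10.8 CPM in HHH of batch 1, and 10.2, 9.62 and 10.4 CPM in general and 11.2, 11.5 and 12.6 CPM in HHH of batch 2. HHH was below general in batch 1 (log2 difference -0.31, SE 0.12, adjusted p = 0.180) and above it in batch 2 (0.23, SE 0.094, adjusted p = 0.141), each without overlap. The difference between the batches was 0.54 (SE 0.15, adjusted p = 0.106), the largest among the cyclins. Of the exon bases of CCNE2, 37.0% overlap INTS8 on the opposite strand, so its counts are uncertain if strand was not used.

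**Figure D4:**
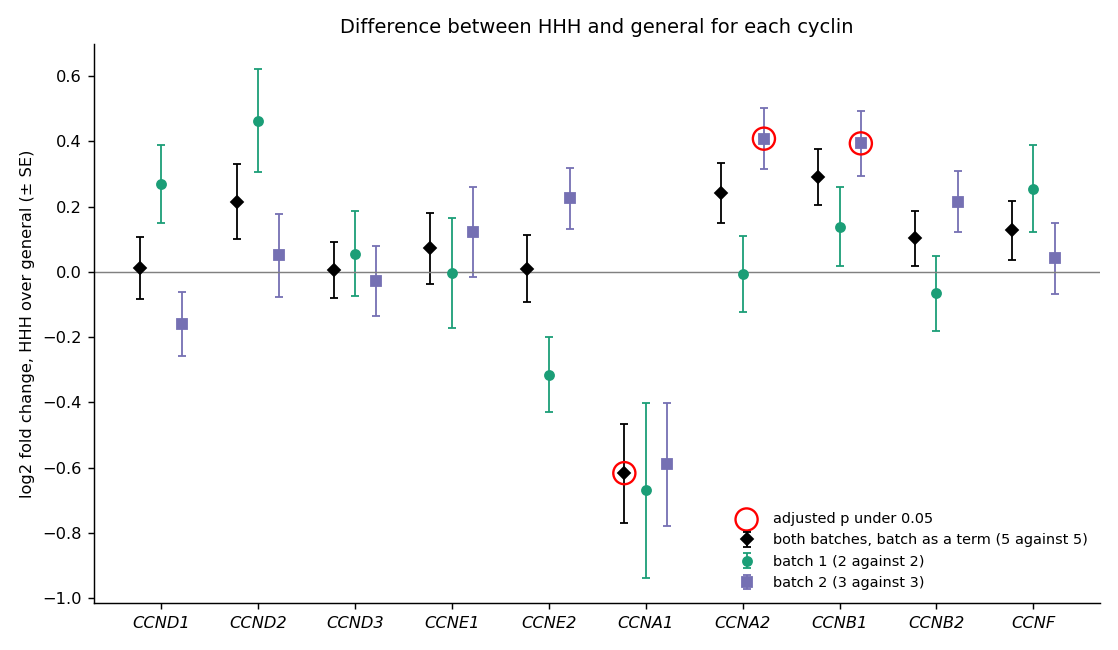
Log2 fold change of HHH over general (± SE) for each cyclin, over both batches (diamonds), in batch 1 (circles) and in batch 2 (squares), with a ring where the adjusted p was under 0.05. The rings mark CCNA1 over both batches (-0.62) and CCNA2 (0.41) and CCNB1 (0.39) in batch 2, and CCND1 and CCNE2 lie on opposite sides of 0 in the batches.

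Within batch 1 the test called 0 of the 10 cyclins, against 2.14% of all genes, and 4 had an unadjusted p under 0.05 (CCND1, CCND2, CCNE2 and CCNA1), beside 16.9% of all genes. DESeq2 called 0 there as well. In the interaction of batch and population, edgeR called 0 of 10, against 0.777% of all genes, with 3 at an unadjusted p under 0.05, beside 18.9% of all genes, and 1 (CCNE2, adjusted p = 0.0341) called by DESeq2. In batch 1, 6 of 10 cyclins had populations without overlap, beside 43.5% of all genes, and in batch 2 also 6 of 10, beside 36.2%. Of these, CCNB1 (higher) and CCNA1 (lower) kept 1 direction in both batches, 2 of 10 beside 9.35% of all genes.

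The batches themselves differed. Of the cyclins, 6 of 10 passed between batch 2 and batch 1, against 47.9% of all genes. CCNA1 was higher in batch 2 (log2 difference 0.93, SE 0.16, adjusted p = 0.000322). CCND3 (-0.68, adjusted p = 2.89e-05), CCNA2 (-0.42, adjusted p = 0.00198), CCNB1 (-0.36, adjusted p = 0.00379), CCND2 (-0.32, adjusted p = 0.0335) and CCND1 (-0.29, adjusted p = 0.0229) were lower. Of 10 fits without 1 library, CCND2 lost its call in 5, without HHH replicate 2 (0.111) or 3 (0.0676) of batch 1 or HHH replicate 1 (0.0556) or 3 (0.0662) or general replicate 3 (0.0844) of batch 2. CCND1 lost it in 3, without HHH replicate 3 of batch 1 (0.0898) or HHH replicate 1 (0.0502) or 3 (0.0558) of batch 2. These signs depended on the scaling: with library size alone, which moved the median of all genes by 0.34 on the log2 scale, CCND1 (0.038) and CCND2 (0.014) turned, and CCNA2 (-0.089) and CCNB1 (-0.023) did not pass. Only CCND3 (-0.34) and CCNA1 (1.27) of the 6 passed under it too, while CCNE1 (0.46, adjusted p = 0.00779) and CCNB2 (0.24, adjusted p = 0.0113) became calls. The share of small RNAs and mitochondrial genes given above moved with the batch, and with those genes left out 6 of 10 cyclins were called again. The 10 genes with the most counts in a library took 18.2% to 23.7% of its counts in batch 1 and 7.65% to 11.5% in batch 2. The part of that difference in the calls was not tested. What else a batch stands for is not given in the labels.

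The genes that work with cyclins were read from 7 lists, against the same 5.83% of all genes. Among 8 CDKs and partner proteins, 1 rose, none fell and 7 did not pass, and all 8 log2 differences were above 0, as were 53.0% of all genes, with a median of 0.21. CDK1, the kinase of cyclins A2, B1 and B2, measured 212 and 189.9 CPM in general and 267 and 254 CPM in HHH of batch 1. Batch 2 gave 123, 146 and 104 CPM in general and 187, 189.6 and 202 CPM in HHH. HHH lay above general in each batch, and the log2 difference was 0.53 (SE 0.094, adjusted p = 0.00352), with at most 0.0155 when any 1 library was left out. CDK2 (0.084, adjusted p = 0.474), CDK4 (0.14, adjusted p = 0.294) and CDK6 (0.099, adjusted p = 0.557), the kinases of the G1 and S cyclins, did not pass. In batch 2, CDK1 (0.63), MNAT1 (0.40), CKS1B (0.46) and CKS2 (0.52) passed, 4 of 8 beside 9.47% of all genes in that batch, and the last 3 are named after their values were seen. The replicate block called 2 of the 8 over both batches.

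Of 8 CDK inhibitors, 5 could be tested, of which 1 was higher and 2 were lower in HHH. CDKN1A encodes p21, which stops CDKs in response to p53. It measured 25.1 and 7.40 CPM in general and 4.87 and 4.40 CPM in HHH of batch 1. The batch 2 levels were 7.08, 8.97 and 9.37 CPM in general and 4.10, 2.78 and 3.13 CPM in HHH. All 5 HHH libraries lay below every general library, and general replicate 1 of batch 1 stood far above the rest. The log2 difference was -1.53 (SE 0.25, adjusted p = 0.00212), and it passed in batch 1 (-1.81) and in batch 2 (-1.34). CDKN1C, which encodes p57, was at -0.35 (SE 0.096, adjusted p = 0.0473), and it passed in 2 of the 10 fits without 1 library and with the block (adjusted p = 0.0174). CDKN3 encodes a phosphatase that acts on CDK1 and CDK2. It measured 26.0 and 24.6 CPM in general and 32.2 and 31.3 CPM in HHH of batch 1, and 17.3, 19.8 and 17.0 CPM in general and 25.9, 27.6 and 33.5 CPM in HHH of batch 2. Its log2 difference was 0.54 (SE 0.094, adjusted p = 0.00324), without overlap in either batch. CDKN1B, which encodes p27, was at -0.052 (adjusted p = 0.827).

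**Figure D5:**
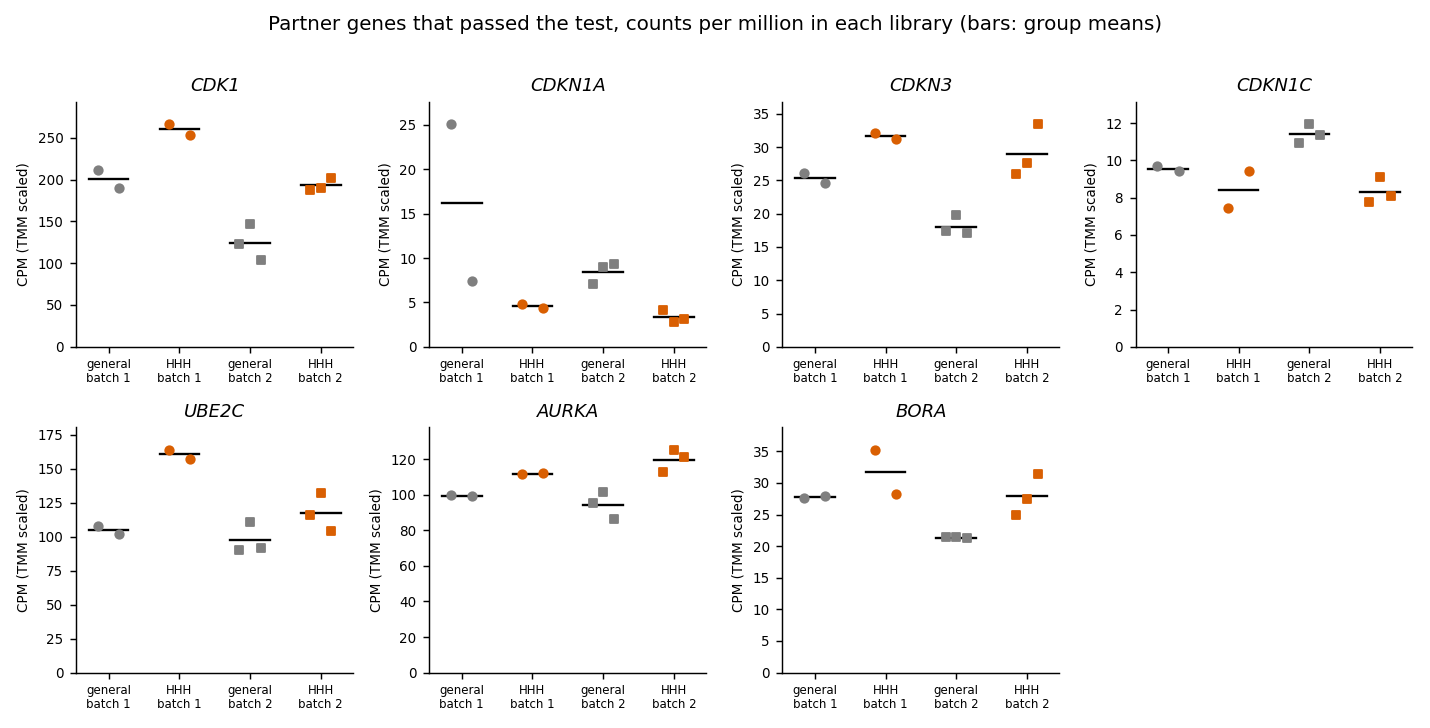
CPM in every library of the 7 genes from the partner lists that passed the test over both batches, drawn as for the cyclins. CDK1, CDKN3, AURKA and BORA are higher and CDKN1A and CDKN1C are lower in every HHH library than in every general library of their batch, UBE2C overlaps in batch 2, and for CDKN1A general replicate 1 of batch 1 stands at 25.1 CPM.

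Among 24 genes of cyclin proteolysis, 1 rose, none fell and 23 did not pass, with 22 log2 differences above 0 and a median of 0.11. UBE2C, the ubiquitin-conjugating enzyme that feeds the anaphase-promoting complex, measured 108 and 102 CPM in general and 164 and 157 CPM in HHH of batch 1. The levels in batch 2 were 90.2, 110.7 and 91.5 CPM in general and 116, 132 and 105 CPM in HHH, where the populations overlapped. The log2 difference was 0.41 (SE 0.093, adjusted p = 0.0180), and it passed in 6 of the 10 fits without 1 library. CDC20 (0.16, adjusted p = 0.155), which activates that complex in mitosis, and SKP2 (0.11, adjusted p = 0.405), did not pass. UBE2S, which extends ubiquitin chains for the same complex, was higher in HHH in batch 1 (1.04, adjusted p = 0.000313), and the difference between the batches passed (-0.95, adjusted p = 0.0142). UBE2S was chosen after its values were seen.

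Of 10 genes of the phosphatases and kinases that switch CDK1 and of their regulators, 2 rose and 8 did not pass. AURKA, which encodes the mitotic kinase Aurora A, measured 99.8 and 99.2 CPM in general and 112 and 112 CPM in HHH of batch 1, and 95.5, 101 and 86.7 CPM in general and 113, 125 and 121 CPM in HHH of batch 2. Its log2 difference was 0.27 (SE 0.070, adjusted p = 0.0341), with 0.0527 under the block and a pass in 3 of the 10 fits without 1 library. BORA, its activator, was at 0.31 (SE 0.085, adjusted p = 0.0470), passed in 1 of those 10 fits, and shares 37.0% of its exon bases with DIS3 on the opposite strand. PLK1 had a log2 difference of 0.32 (adjusted p = 0.0584). It passed in batch 1 (0.64, adjusted p = 0.00360) and not in batch 2 (0.12, adjusted p = 0.373), and the difference between the batches did not pass (adjusted p = 0.0792). CDC25A was at 0.051 (adjusted p = 0.761), CDC25C at 0.19 (adjusted p = 0.178) and WEE1 at 0.18 (adjusted p = 0.151).

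The lists of regulators of cyclin transcription had no call by edgeR, and their unadjusted counts stand beside 20.9% of all genes. Of 13 RB and E2F genes, 0 passed and 2 had an unadjusted p under 0.05. The smallest p was that of E2F7, a repressor of E2F targets, at -0.23 (SE 0.072, adjusted p = 0.0785). Of 10 genes of the DREAM complex, MYBL2, FOXM1 and NF-Y, 0 passed and 1 had an unadjusted p under 0.05 (NFYA, -0.17, adjusted p = 0.231). FOXM1 (0.020, SE 0.087) and MYBL2 (0.097, SE 0.10), which activate mitotic genes, were close to 0 over both batches. In batch 1 FOXM1 was at 0.20 (adjusted p = 0.428) and MYBL2 at 0.39 (adjusted p = 0.115). In batch 2 FOXM1 was at -0.099 (adjusted p = 0.550) and MYBL2 at -0.0997 (adjusted p = 0.554). Of 18 further cyclins, 16 were tested, 0 passed and 3 had an unadjusted p under 0.05. The smallest p among them was that of CCNG1, a p53 target, at -0.44 (SE 0.14, adjusted p = 0.0854), with 1304 CPM in general replicate 1 of batch 1 and 525 to 831 CPM in the other libraries. With the median of all genes at 0.016, the list medians were 0.059 for RB and E2F, 0.012 for DREAM and -0.010 for the further cyclins.

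The genes most like the 2 cyclins of smallest p were sought among 13243 protein-coding genes of at least 1 CPM, by the root mean square difference of their log2 levels over the 10 libraries, each centred on its batch. For CCNB1 these were C3orf33 (0.029), BORA (0.043) and TRMT112 (0.046), beside a root mean square of 0.18 for CCNB1 around its own batch means. For CCNA1 they were CALCRL (0.085), RPRM (0.11) and TMEM86A (0.11), beside 0.33 for CCNA1 itself.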

How the data were processed

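RNA was sequenced in 5 general and 5 HHH libraries over 2 batches named in the titles. The authors deposited whole counts per Ensembl gene, without normalization, and log2 values, kept here as a score, which the authors made by TMM scaling and conversion to RPKM, as their name states. In these the batches had equal means per gene, so a batch term had been subtracted. The submitters' processing notes name genome build GRCh37, CASAVA 1.8.2, R 3.2.2 and limma 3.26.9. The aligner, counting tool, annotation and strandedness are not given in the sources used here. Symbols, coordinates, exon lengths and overlaps came from GENCODE 44 (GRCh38).

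Counts were filtered with filterByExpr (minimum count 10, by population) and scaled by TMM. HHH was compared with general by edgeR 4.0.16 (quasi-likelihood, two-sided, R 4.3.3), batch being a covariate, and effects within batches and their interaction came from a fit of 4 groups. P-values were Benjamini-Hochberg adjusted over 23552 genes, and an adjusted p under 0.05 was a call. SE was the log2 difference over the square root of F. The method was tested on simulated data. Alternatives were the replicate block, no batch term, RLE, upper quartile and library size scaling, other filters, DESeq2 1.42.0, limma 3.58.1 (voom, or the deposited log2 values), exclusion of small RNAs and mitochondrial genes, separate fits per batch and fits without 1 library.

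Replicate numbers are shared by 4 pairs within a batch. Deviations of paired libraries from their group means correlated at 0.113 in batch 1 and at 0.239, 0.143 and 0.113 in batch 2. In batch 1, general replicate 1 with HHH replicate 3 also gave 0.113, because 2 libraries deviate from their mean by opposite amounts. Batch 1 thus cannot decide the pairing. In batch 2 the pairs of unlike number gave -0.126 to -0.0051, but deviations that sum to 0 within a group push such values down. The replicate block took the numbers as pairs, which these correlations do not establish.

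The cyclins, partner lists and markers were chosen with earlier results of these data known. Named genes were all 10 cyclins, up to 4 genes per partner list with an adjusted p under 0.05 or else the one with the smallest p, EPCAM and CD9, and the 3 genes closest to each of the 2 cyclins with the smallest p. Other genes are named after their values were seen.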

Additional observations from a re-analysis of the deposited data

Results flagged for a closer look

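For 4 cyclins, every HHH library of 1 batch lay above the mean of its general libraries and every HHH library of the other batch below it. The difference between the batches in the log2 effect, batch 2 minus batch 1, was 0.54 for CCNE2 (adjusted p = 0.106, edgeR), with HHH lower in batch 1 and higher in batch 2. For CCND1 it was -0.43 (adjusted p = 0.172), with HHH higher in batch 1 and lower in batch 2. For CCNB2 it was 0.28 (adjusted p = 0.316). For CCNE1 it was 0.13 (adjusted p = 0.786), where both HHH libraries of batch 1 lay between the general libraries, at 26.3 CPM beside a mean of 26.4 CPM. None of these differences passed the test. No group held the 4 libraries that a check for single outlying libraries needs.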

How the results depend on the processing

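Over both batches the test called 1373 genes and 1 cyclin. Without a batch term it called 168 genes and 0 cyclins, without a filter 2423 genes and 2 cyclins (CCNA1 and CCNB1), with DESeq2 2 cyclins (the same) and with the replicate block 0. Leaving out 1 library gave 808 (without HHH replicate 2 of batch 2) to 2347 genes (without HHH replicate 3 of batch 1) and 0 to 3 cyclins, the 3 being CCNA1, CCNA2 and CCNB1 without HHH replicate 3 of batch 1. Within batch 1, DESeq2 called 907 genes in place of 504, the batch fitted alone 136, and fits without 1 library 119 to 788, without general replicate 1 and replicate 2 of that batch. Such fits leave 1 library in an arm of batch 1, which is then assumed to vary like the other groups. Within batch 2, fits without 1 library called 785 to 2842 genes in place of 2231, and 0 to 2 cyclins, DESeq2 called 3071 genes and 2 cyclins, and the batch fitted alone 3166 genes and 3 cyclins. The third was CCNA1 (adjusted p = 0.04999). In the interaction, DESeq2 called 838 genes in place of 183 and 1 cyclin, and fits without 1 library 21 to 222. The causes were not tested.

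Of the calls over both batches, 33.4% were higher in HHH, against 23.3% with library size alone and 4.43% on the deposited log2 values, where the median of all genes was -0.12. There CCND1 (-0.13), CCND3 (-0.14), CCNE1 (-0.050), CCNE2 (-0.13), CCNB2 (-0.040) and CCNF (-0.016) turned. CCND1, CCND3 and CCNE2, all near 0, also turned with library size alone (-0.019, -0.030 and -0.030) and upper quartile scaling (-0.012, -0.016 and -0.014). With the replicate block CCND1 (-0.077) and CCND3 (-0.012) turned, with at least 1 CPM in 5 libraries CCND3 (-0.0046) and CCNE2 (-0.0016), and without a batch term CCNE2 (-0.0046). CCNA1 stayed below 0 and CCNA2 and CCNB1 above 0 under every alternative run over both batches. The block changed the calls of CCNA1, AURKA and CD9 given with their values.

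Fits without 1 library turned the sign over both batches for CCND1 (-0.068 to 0.069), CCND3 (-0.023 to 0.057), CCNE1 (-0.0064 to 0.19) and CCNE2 (-0.049 to 0.069). In batch 1 they did for CCND3 (-0.016 to 0.13), CCNE1 (-0.29 to 0.36), CCNA2 (-0.074 to 0.061) and CCNB2 (-0.14 to 0.0085). In batch 2 they did for CCND2 (-0.063 to 0.17), CCND3 (-0.090 to 0.057) and CCNF (-0.062 to 0.15), and in the interaction for CCND3 (-0.16 to 0.00085), CCNE1 (-0.23 to 0.42) and CCNA1 (-0.073 to 0.17).

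Upper quartile and library size scaling of the comparison of the batches were added after seeing the data, and each called 4 cyclins in place of 6, of which library size alone kept 2. Fits without 1 library called 4 to 7. With library size alone CCND1 (0.038), CCND2 (0.014), CCNE2 (0.18), CCNB2 (0.24) and CCNF (0.18) turned, and 87.7% of all calls were higher in batch 2, against 50.1%.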
